A study of Mus musculus with 4 samples.

Results

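The genes described here are the 4 mammalian Notch receptors Notch1 to Notch4, the Notch ligands Jag1, Jag2, Dll1 and Dll4, and Hes1 and Hey1, which Notch switches on. Together they are 10 of the 22180 genes that could be named on the arrays. The 10 were picked by name, with earlier results of these arrays known, Notch2 among them. Each gene was read from the probe set that carries its symbol alone, and where there were several such probe sets from the one with the highest mean over the 4 arrays. RNA came from cultures of CT26, a mouse colon carcinoma line, on 4 Affymetrix Mouse Gene 2.0 ST arrays. The first culture was exposed to Senexin B (5 µM, 24 h), and its control to the solvent DMSO for the same time. The third culture was the line labelled shCDK8, named for a short hairpin RNA against Cdk8, and its control was the line with pLKO.1, a lentiviral vector for such hairpins. Senexin B is an inhibitor of CDK8 and its paralog CDK19, which are kinases of Mediator, the bridge between transcription factors and RNA polymerase II. The labels do not say whether the shCDK8 and pLKO.1 lines were clones or pools, or how they were handled before RNA isolation.

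Notch receptors sit on the cell surface and are activated by Delta and Jagged ligands on a neighbouring cell. Binding leads to cleavage by the protease Adam10 and then by gamma-secretase, and the freed intracellular part joins the DNA-binding protein Rbpj and a Mastermind co-activator to switch on Hes and Hey genes, which encode repressors. In the mouse intestine this signal keeps crypt progenitors dividing and away from secretory fates. In work with human cells, CDK8 with cyclin C phosphorylates the intracellular part of Notch and so marks it for degradation through Fbxw7. Such a step acts on protein and is not read by these arrays.

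Values are log2 expression, so that a difference of 1 is 2-fold. With 1 array per group no difference could be tested, and each is a description of a pair of arrays whose spread between cultures is unknown. A gene with at least 1 array at or above 5.98 was called expressed. This limit is the 40th percentile of the gene values, and 14272 genes passed it. Of the 10 Notch pathway genes 9 were expressed by this limit, and Dll4 was not. The values of pLKO.1 minus DMSO were used to gauge how far arrays of this line lay apart without either perturbation of CDK8. They are not replicates, since a vector and a solvent distinguish them, and each is shared with a comparison. Between them the middle 95% of expressed genes lay from -0.40 to 0.38. Array medians were 5.99 to 6.04, and across probe sets the arrays correlated with a Pearson's r of 0.982 to 0.990. Cdk8 itself stood at 9.07 in shCDK8, against 10.79 in pLKO.1, and at 10.58 in Senexin B, against 10.69 in DMSO.

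The cultures were also checked against marker genes. Of 8 epithelial markers 5 were expressed, among them the keratin genes Krt8, Krt18 and Krt20, while Epcam, Krt19 and Vil1 lay under the limit on all 4 arrays. The summed log2 values of the epithelial list were 51.8 in Senexin B and 51.3 in DMSO, and 49.3 in shCDK8 and 50.3 in pLKO.1. Krt20 was at 6.59 in shCDK8 and 8.03 in pLKO.1, and at 8.62 in Senexin B and 8.72 in DMSO. The other epithelial markers lay between -0.15 (Epcam) and 0.41 (Cdx2) in shCDK8 minus pLKO.1. In Senexin B minus DMSO they lay between -0.15 (Krt18) and 0.22 (Epcam). Immune markers were under the limit throughout (0 of 5 measured), as were the endothelial markers Tek, Emcn and Cldn5 (5 of 8 endothelial markers were expressed). Of 6 fibroblast markers 6 were expressed. Their summed log2 values were 58.0 in Senexin B and 53.9 in DMSO, and 52.2 in shCDK8 and 55.3 in pLKO.1. Dcn, a matrix gene of that list, was 2.29 higher in Senexin B than in DMSO, where the other fibroblast markers lay between -0.46 (Fap) and 1.24 (Pdgfra). In shCDK8 minus pLKO.1 the collagen gene Col3a1 was at -1.27, and the others lay between -0.94 (Fap) and 0.39 (Pdgfra). Fap was above the limit in pLKO.1 alone. The endothelial list summed to 46.6 in Senexin B and 46.1 in DMSO, and 44.5 in shCDK8 and 44.7 in pLKO.1. Of 6 markers of mural cells, which surround vessels, 5 were expressed, with summed values of 39.98 in Senexin B and 38.2 in DMSO, and 37.7 in shCDK8 and 38.7 in pLKO.1. Pdgfrb, a growth factor receptor gene on that list, was at 10.62 in Senexin B and 9.12 in DMSO, and at 8.05 in shCDK8 and 9.30 in pLKO.1. The other mural markers lay between -0.33 (Des) and 0.36 (Cspg4) in Senexin B minus DMSO. In shCDK8 minus pLKO.1 they lay between -0.29 (Cspg4) and 0.36 (Des). Des was under the limit on all arrays but shCDK8. The part of these markers in the Notch gene values was not tested. In such bulk RNA fewer cells with a transcript and less of it per cell cannot be told apart.

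**Figure D1:**
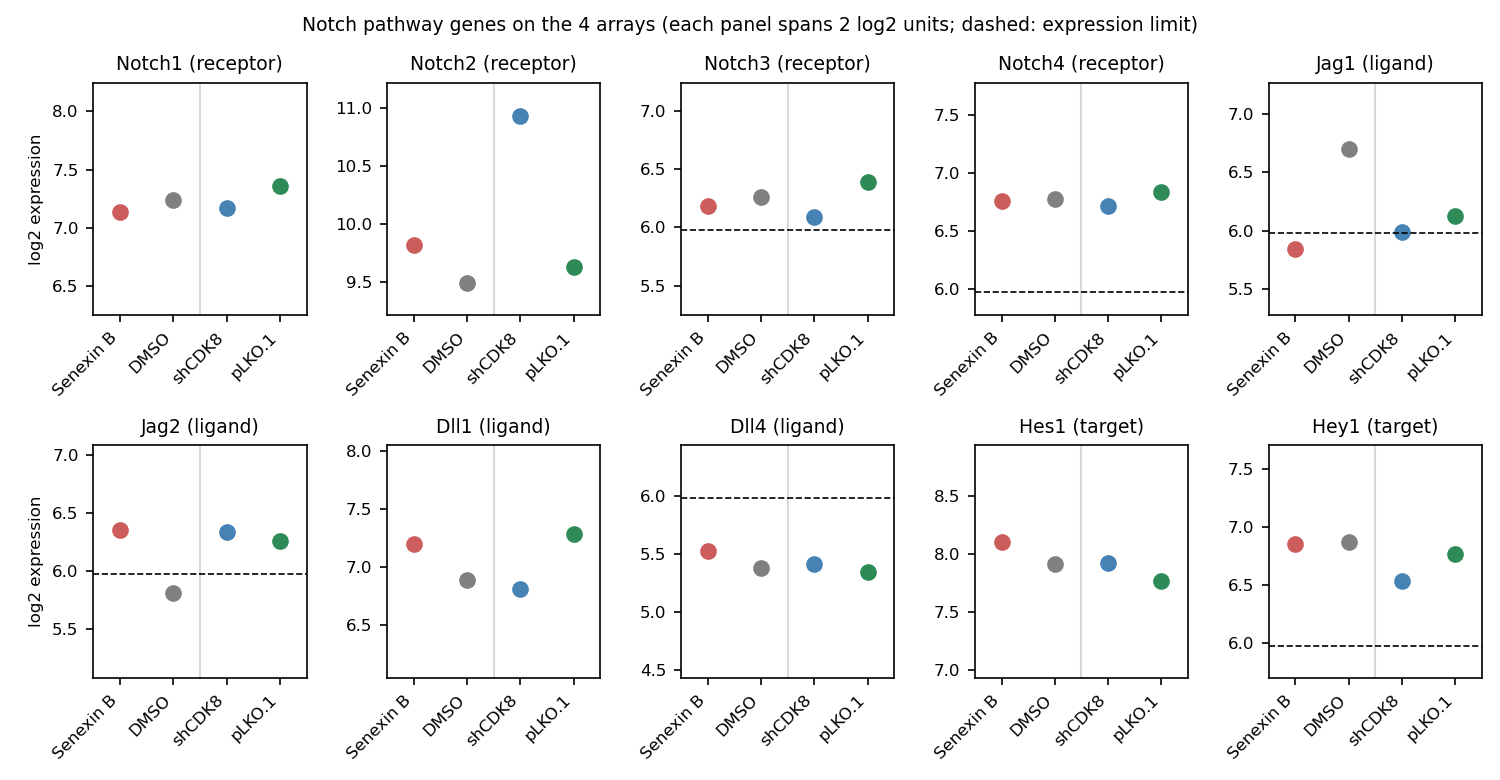
Log2 expression of the 10 genes, with a panel for each gene and a point for each array (Senexin B and DMSO left of the grey line, shCDK8 and pLKO.1 right of it). Notch2 stood at 10.93 in shCDK8 and between 9.50 and 9.82 elsewhere, and for Jag1 the DMSO array, at 6.70, stood above the other arrays.

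Notch2, the receptor with the widest range of the 10 genes (1.43), was higher in the CDK8 hairpin line. It stood at 10.93 in shCDK8, against 9.63 in pLKO.1. In the treated pair it was at 9.82 in Senexin B, against 9.50 in DMSO. The shCDK8 array was thus apart from the other 3 arrays, which lay within 0.32 of each other. The difference of shCDK8 minus pLKO.1 was 1.30, or 2.46-fold, and 8 of the 14272 expressed genes had a larger positive one. Set against the DMSO array the shCDK8 value was 1.43 higher. With Senexin B the difference was 0.32, inside the middle 95% between the controls, and against the pLKO.1 array it was 0.19.

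For those of the 10 genes with the widest separation in each comparison, Notch2 in shCDK8 and Jag1 with Senexin B, the 250 bases before the annotated transcript start are shown from RefSeq (GRCm38.p6), 5′ to 3′ on the strand of the gene, since transcription of each gene begins next to it. Notch2 lies on the plus strand (chr3:98013288-98013537) and Jag1 on the minus strand (chr2:137116521-137116770). Capitals mark GC boxes, the letters GGGCGG on either strand.
Notch2: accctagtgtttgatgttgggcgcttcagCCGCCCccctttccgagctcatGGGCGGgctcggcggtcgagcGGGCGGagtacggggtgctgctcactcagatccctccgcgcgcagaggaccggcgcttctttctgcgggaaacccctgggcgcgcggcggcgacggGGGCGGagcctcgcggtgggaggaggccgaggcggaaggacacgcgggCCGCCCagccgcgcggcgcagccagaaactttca
Jag1: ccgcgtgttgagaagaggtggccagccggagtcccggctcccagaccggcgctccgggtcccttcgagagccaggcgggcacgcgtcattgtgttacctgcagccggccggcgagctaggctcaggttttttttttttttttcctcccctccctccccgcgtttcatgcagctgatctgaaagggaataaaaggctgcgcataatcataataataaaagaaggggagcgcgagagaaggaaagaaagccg
The Notch2 stretch held 5 GC boxes and was 72.0% G or C, and the Jag1 stretch held 0 and was 57.2% G or C. Such a box occurred in 32.7% of 32851 mouse promoters over the same 250 bases. Of the 9 windows available here for 8 of the 10 genes, 5 held at least 1 GC box. Notch1 and Jag2 also had 5 each in these 250 bases, Notch3 4 and Dll4 2. The core of the Rbpj motif, TGGGAA on either strand, was looked for in the same windows at their length of 300 bases (250 before and 50 after the start). It was in 0 of the 9, and in 25.6% of all windows of that length. Hes1 and Hey1, the target genes among the 10, had no window in the promoter sequences used. The motif count thus covers receptors and ligands only and says nothing of the target genes. Which start the CT26 cells use was not measured.

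The other receptors lay close together on the 4 arrays. Notch1, a receptor that acts with Notch2 in mouse intestinal crypts, was at 7.13 in Senexin B and 7.24 in DMSO, and at 7.17 in shCDK8 and 7.36 in pLKO.1. Its differences were -0.11 with Senexin B and -0.19 in shCDK8. Notch3, best known from the smooth muscle of arteries, was at 6.18 in Senexin B and 6.26 in DMSO, and at 6.09 in shCDK8 and 6.39 in pLKO.1. Its differences were -0.079 with Senexin B and -0.30 in shCDK8, with all 4 values near the expression limit. Notch4, mostly an endothelial receptor, had the narrowest range of the 10 genes (0.12), with 6.76 in Senexin B, 6.78 in DMSO, 6.71 in shCDK8 and 6.83 in pLKO.1. In shCDK8 these 3 receptors were thus each lower than in pLKO.1, by 0.12 to 0.30, while Notch2 was higher. Differences of that size were common: 57.3% of expressed genes were at least as far apart as Notch4 and 19.0% as far as Notch3. For pLKO.1 minus DMSO all 4 receptors lay above 0, between 0.058 and 0.14, where 44.3% of expressed genes did.

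Among the ligands Jag1, which encodes Jagged1, was lower with Senexin B than with DMSO. It stood at 5.84 in Senexin B, against 6.70 in DMSO, and at 5.99 in shCDK8, against 6.13 in pLKO.1. The DMSO array was the high one, and the other 3 lay between 5.84 and 6.13, near the expression limit. The difference with Senexin B was -0.86, a 1.82-fold lower value, and 55 expressed genes had a more negative one. With the Senexin B value raised to the limit it was -0.72. Against the pLKO.1 array it was -0.29, and between the control arrays Jag1 already differed by -0.57. In shCDK8 the difference was -0.14 against pLKO.1 and -0.71 against DMSO.

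Jag2, the gene of the other Jagged ligand, showed the reverse order. It was at 6.35 in Senexin B and 5.81 in DMSO, and at 6.34 in shCDK8 and 6.25 in pLKO.1. Here the DMSO array was the low one and lay under the expression limit. The Senexin B difference was 0.53, or 0.37 with the DMSO value raised to the limit, and 0.095 against the pLKO.1 array. Between the control arrays Jag2 differed by 0.44, and shCDK8 minus pLKO.1 gave 0.085.

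Dll1, a Delta ligand of crypt cells in the mouse, was at 7.20 in Senexin B and 6.89 in DMSO, and at 6.81 in shCDK8 and 7.29 in pLKO.1. The difference was 0.32 with Senexin B, -0.47 in shCDK8 and 0.40 between the control arrays. The gene had a second probe set, which did not follow the first: it read 6.41 in Senexin B and 6.37 in DMSO, and 6.66 in shCDK8 and 6.28 in pLKO.1. Its difference was 0.043 with Senexin B and 0.38 in shCDK8, so the direction in shCDK8 turned with the probe set and none is given for the gene. Dll4, a Delta ligand known mostly from endothelium, lay between 5.34 and 5.52 on the 4 arrays, under the expression limit, and no fold is given. A further probe set, annotated to Dll4 and Gm14207 together, was left out, and lay between 5.87 and 6.05.

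**Figure D2:**
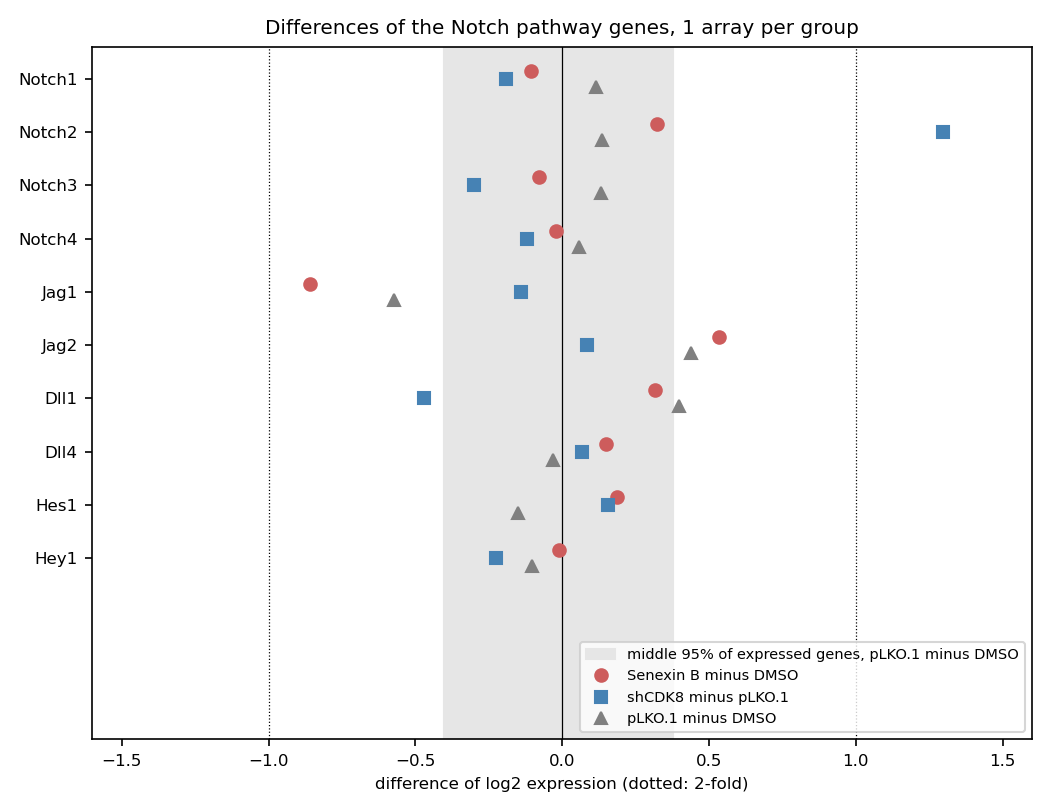
Differences of log2 expression for the 10 genes in Senexin B minus DMSO (circles), shCDK8 minus pLKO.1 (squares) and pLKO.1 minus DMSO (triangles), with the middle 95% of expressed genes between the controls shaded. Notch2 in shCDK8 (1.30) lies beyond the dotted 2-fold line, and for Jag1, Jag2 and Dll1 the circle and the triangle lie on the same side of 0.

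The Senexin B and the control differences of Jag1, Jag2 and Dll1 share the DMSO array. In each of the 3 both differences had the same sign, and with Senexin B set against pLKO.1 Dll1 was at -0.082. Ligands outside the 10 genes were looked at in the same way. Of Dll3, Dlk1, Dlk2, Dner and Egfl7, 4 were expressed and Dll3 was not. Dlk1, a non-canonical ligand, was at 6.03 in Senexin B and 6.59 in DMSO, and at 6.22 in shCDK8 and in pLKO.1. Its relative Dlk2 was at 7.74 in Senexin B and 8.12 in DMSO, and at 7.64 in shCDK8 and 7.68 in pLKO.1. Dner, a neuronal ligand, was at 5.72 in Senexin B and 6.17 in DMSO, and at 5.32 in shCDK8 and 5.75 in pLKO.1. It was under the expression limit on all arrays but DMSO, so no shCDK8 difference is given, and with the Senexin B value raised to the limit that difference was -0.19. In each of these 3 the DMSO array was again the highest of the 4. The list median was -0.41 with Senexin B, -0.39 between the control arrays, and -0.018 in shCDK8, where Egfl7 was at 0.21, with Dner entered as measured.

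The target genes lay near their controls in both comparisons. Hes1, the Notch target that represses secretory fate genes in the intestine, was at 8.11 in Senexin B and 7.92 in DMSO, and at 7.92 in shCDK8 and 7.77 in pLKO.1. The difference was 0.19 with Senexin B, where 41.9% of expressed genes were at least as far apart, and 0.16 in shCDK8, where 46.7% were. Set against the other control, Hes1 was at 0.34 with Senexin B and at 0.0056 in shCDK8. Hey1, a related repressor gene, was at 6.86 in Senexin B and 6.87 in DMSO, and at 6.54 in shCDK8 and 6.76 in pLKO.1. Its difference was -0.011 with Senexin B and -0.22 in shCDK8. On the shCDK8 array, where Notch2 was 2.46-fold higher than in pLKO.1, Hes1 was 1.11-fold higher and Hey1 1.17-fold lower.

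Over the 9 expressed genes, 0 were at least 2-fold apart with Senexin B, where 0.939% of all expressed genes were. In shCDK8 1 of 9 was, Notch2, where 0.518% of all expressed genes were at least 2-fold apart and 0.196% at least 2-fold higher. Between the control arrays 0 of 9 were, where 0.0981% of expressed genes were. The genes were gathered with the Notch2 value known, so nothing is read from its count. At 1.5-fold, Jag1 was added with Senexin B as the single gene past it, where 1.65% of expressed genes were at least that much lower. In shCDK8 no gene was added at 1.5-fold, where 3.52% of expressed genes were past it. Above 0 were 4 of 9 with Senexin B, where 44.8% of expressed genes were, and 3 of 9 in shCDK8, where 50.8% were. The medians were -0.011 with Senexin B and -0.14 in shCDK8, beside -0.028 and 0.0038 over all expressed genes.

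**Figure D3:**
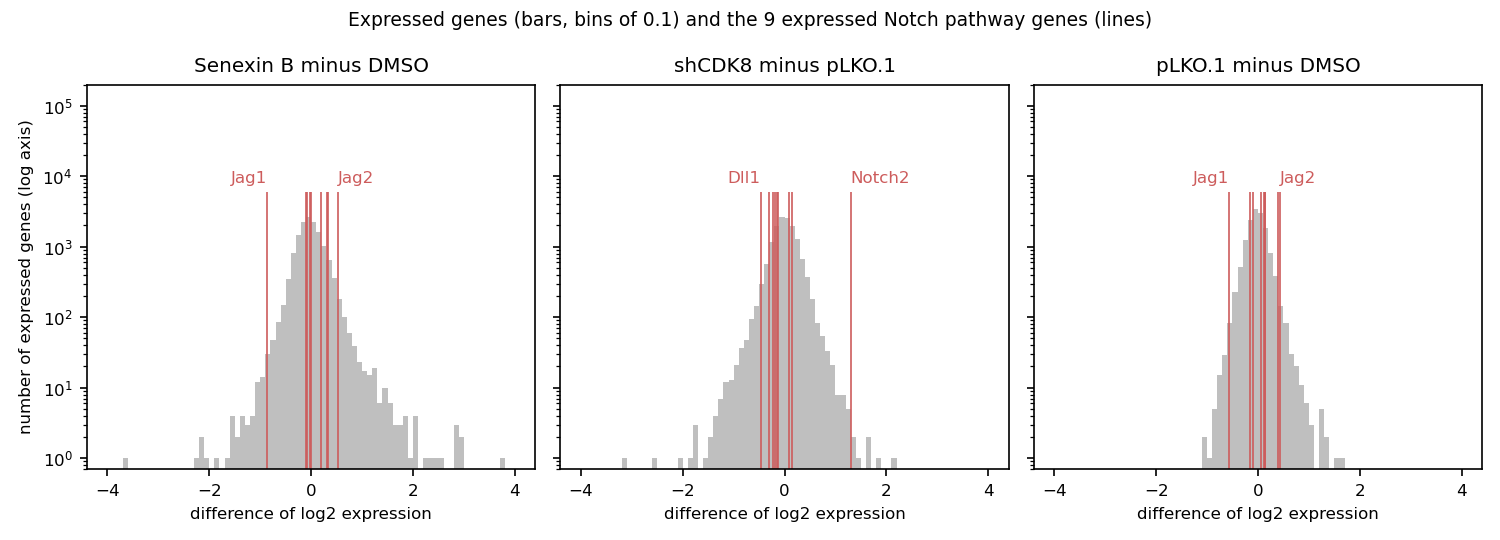
Number of expressed genes by difference of log2 expression in bins of 0.1 (bars, log axis), with a line for each of the 9 expressed Notch pathway genes and names for the lowest and the highest. In shCDK8 minus pLKO.1 Notch2 (1.30) lies in the far upper tail, and the other 8 lie between -0.47 and 0.16.

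Genes that act on the receptors were described as lists. Glycosyltransferases modify the extracellular part of Notch and set which ligands it answers to. Of 13 names 11 were measured, since Kdelc1 and Kdelc2 are former names of Poglut2 and Poglut3, and all 11 were expressed. Gxylt2, which adds xylose to Notch, was the single gene at least 2-fold apart, in shCDK8, where 0.518% of expressed genes were. It stood at 8.53 in shCDK8, against 7.27 in pLKO.1, and at 8.79 in Senexin B, against 8.02 in DMSO. Its differences were 1.26 in shCDK8 and 0.76 with Senexin B. The pLKO.1 array was the low one for Gxylt2, at -0.75 from DMSO, and against the DMSO array shCDK8 was 0.51 higher. Gxylt1, its relative, was at 0.21 in shCDK8 and 0.087 with Senexin B. Poglut1, which adds the glucose that Gxylt enzymes extend, was at 0.34 in shCDK8 and 0.077 with Senexin B. Lfng, the Fringe enzyme that shifts Notch towards Delta ligands, was at -0.50 with Senexin B and 0.16 in shCDK8. Poglut3, of the glucosyltransferase family, was at 0.23 with Senexin B. The medians of the list were 0.075 with Senexin B and 0.16 in shCDK8, with 7 of 11 above 0 in each, where 44.8% of expressed genes were with Senexin B and 50.8% in shCDK8. Past 1.5-fold were 1 of 11 in each, Gxylt2, where 4.0% of expressed genes were with Senexin B and 3.52% in shCDK8.

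The enzymes that cleave Notch were all expressed where measured (9 of 10). Adam10, which makes the first activating cut, was at 0.028 with Senexin B and 0.22 in shCDK8. Psen2, a catalytic subunit of gamma-secretase, was at 6.72 in shCDK8 and 6.13 in pLKO.1, and at 6.20 in Senexin B and 6.26 in DMSO. Its shCDK8 difference of 0.59 was just past 1.5-fold and the single one in the list, where 3.52% of expressed genes were past it. Against the DMSO array it was 0.45, no longer past it. Ncstn (nicastrin), another gamma-secretase subunit, was at 0.24 in shCDK8, and Furin, which processes the receptor in the Golgi, at -0.24 with Senexin B. Aph1c, of the Aph1 family of gamma-secretase subunits, was at -0.26 with Senexin B, and the protease gene Adam17 at -0.15. The shCDK8 differences were above 0 in 7 of 9, where 50.8% of expressed genes were, with a median of 0.15. The Senexin B differences were above 0 in 4 of 9, where 44.8% were, with a median of -0.066.

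Ubiquitin ligases and adaptors move ligands and receptors through the cell. Among 7 genes of ligand endocytosis 0 were past 1.5-fold, where 4.0% of expressed genes (571 of 14272) were with Senexin B and 3.52% in shCDK8. The medians were 0.049 with Senexin B and -0.055 in shCDK8. Neurl3 was at -0.51 with Senexin B and 0.48 in shCDK8, its relative Neurl1a at 0.23 with Senexin B and 0.46 in shCDK8, and the endocytic adaptor gene Epn2 at 0.39 with Senexin B and -0.32 in shCDK8. Mib1, the main ligase of Notch ligands in mammals, was at -0.15 with Senexin B and -0.37 in shCDK8. Of 10 measured genes of receptor turnover Numbl, a relative of the Notch inhibitor Numb, was furthest apart. It stood at 8.18 in Senexin B, against 7.48 in DMSO, and at 7.88 in shCDK8, against 7.44 in pLKO.1. The difference was 0.69 with Senexin B, 0.44 in shCDK8 and -0.040 between the control arrays. Of the ubiquitin ligases, Dtx4 was at 0.41 and Nedd4l at -0.33 with Senexin B, and Itch at 0.24 in shCDK8. The list medians were 0.0091 with Senexin B and -0.0048 in shCDK8. Fbxw7, which degrades the intracellular part of Notch, was at -0.043 with Senexin B and 0.23 in shCDK8.

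In the nucleus Rbpj was at 12.60 in Senexin B and 12.36 in DMSO, and at 12.39 in shCDK8 and 12.43 in pLKO.1. With Senexin B the gene furthest apart in the list was Rbpjl, listed as a paralog of Rbpj. Whether it takes part in Notch signalling was not tested. Rbpjl was at 7.13 in Senexin B and 6.60 in DMSO, and at 6.89 in shCDK8 and 6.75 in pLKO.1. The Rbpjl difference was 0.53 with Senexin B, 0.38 against the pLKO.1 array, and 0.14 in shCDK8. Of the Mastermind genes, Maml2 was at -0.37 with Senexin B and -0.20 in shCDK8, and Maml3 at 0.094 with Senexin B and 0.26 in shCDK8. The acetyltransferase gene Ep300 was at -0.15 with Senexin B and -0.29 in shCDK8, and Kat2b, another, at -0.25 with Senexin B. The list of 10 had a median of -0.042 with Senexin B and -0.043 in shCDK8, and 0 genes were past 1.5-fold in either comparison, where 4.0% of expressed genes were with Senexin B and 3.52% in shCDK8. Of 10 measured co-repressor genes 0 were past it either, with medians of -0.13 with Senexin B and 0.047 in shCDK8. Tle1, a Groucho-type co-repressor of Hes proteins, was at -0.58 with Senexin B and 0.022 in shCDK8, and its relative Tle3 at 0.38 with Senexin B and 0.079 in shCDK8. Tle2, of the same family, was at 0.25 with Senexin B. The largest differences of co-repressor genes in shCDK8 were those of Kdm5a (0.19), Cir1 (0.13) and Spen (-0.12). Of the 7 genes of the Mediator kinase module Cdk8 alone was past 2-fold, in shCDK8 (-1.72), where 0.518% of expressed genes were. The other 6 lay between -0.24 (Med13l) and 0.19 (Ccnc, the cyclin C gene) in shCDK8. With Senexin B all 7 lay between -0.20 (Med13) and 0.16 (Cdk19), with Med12 at -0.12.

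**Figure D4:**
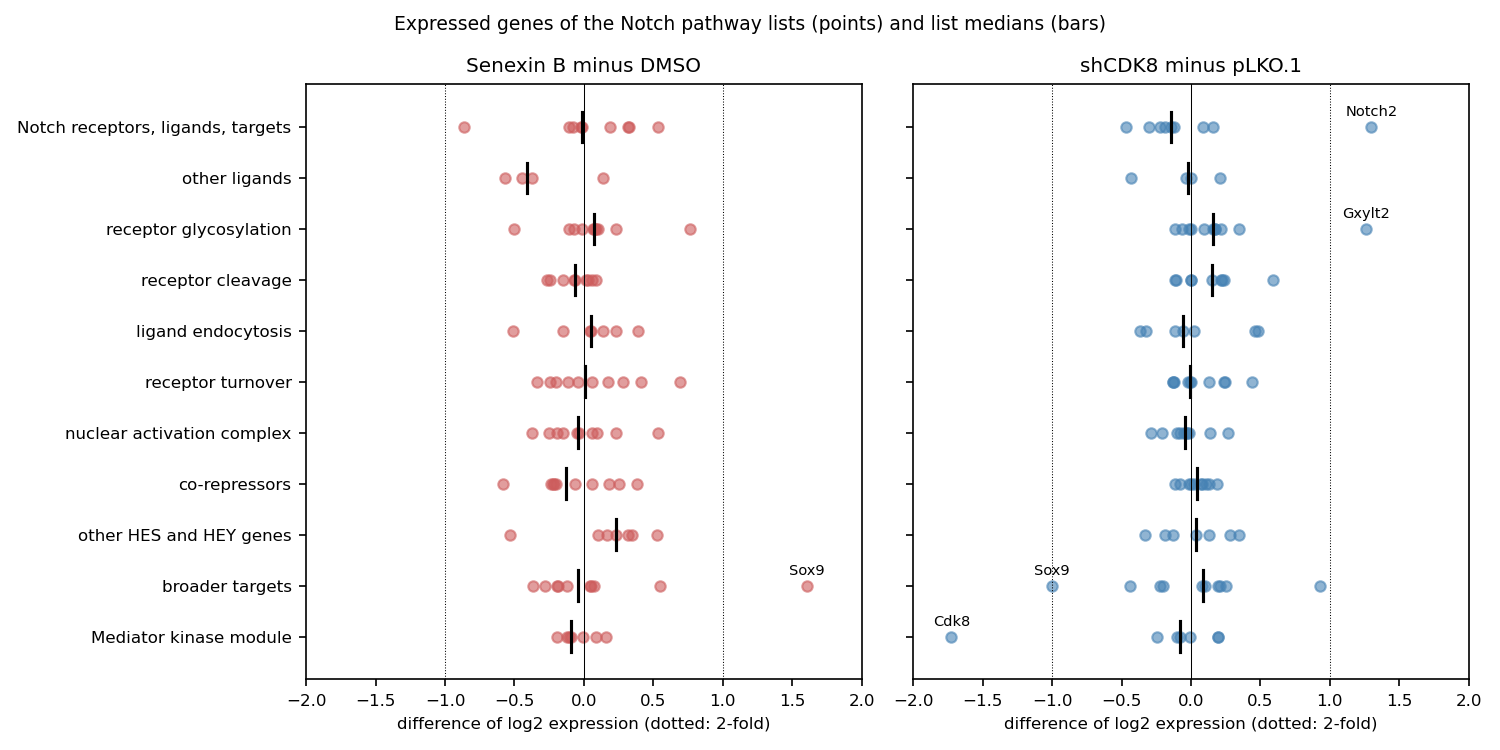
Differences of log2 expression for the expressed genes of each pathway list (points) and the list medians (bars), Senexin B minus DMSO on the left and shCDK8 minus pLKO.1 on the right. Past the dotted 2-fold lines are Sox9 in both panels and Notch2, Gxylt2 and Cdk8 in the right one.

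The other Hes and Hey genes and Nrarp lay on both sides of 0. Apart from Nrarp they were listed by family name, and whether each answers to Notch was not tested. Of these 8 genes 7 were expressed. In either comparison 0 of the 7 were past 1.5-fold, where 4.0% of expressed genes were with Senexin B and 3.52% in shCDK8. With Senexin B 6 of the 7 lay above 0, where 44.8% of expressed genes did, with a median of 0.23, led by Hes7 at 0.53 and Heyl at 0.35. Among the 6, Hey2 was under the limit in DMSO, and with that value raised to the limit its difference was 0.0062. The seventh was Nrarp, a Notch target whose product limits Notch activity, at 7.50 in Senexin B and 8.03 in DMSO, and at 7.94 in shCDK8 and 8.07 in pLKO.1. Its difference was -0.53 with Senexin B, -0.58 against the pLKO.1 array, and -0.13 in shCDK8. In shCDK8 the list median was 0.038, with Hes6 at 0.28 and Heyl at -0.33. Hey2 was at 6.09 in shCDK8 and 5.74 in pLKO.1, under the limit, and with that value raised to the limit the difference was 0.11.

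Of 11 broader targets, which answer to Notch in some tissues and to other signals as well, 10 were expressed, with medians of -0.039 with Senexin B and 0.090 in shCDK8. Sox9, a transcription factor gene of crypt cells, stood at 8.91 in Senexin B, against 7.31 in DMSO, and at 6.98 in shCDK8, against 7.99 in pLKO.1. Its Senexin B difference was 1.61 against the DMSO array and 0.93 against the pLKO.1 array, under 2-fold. Its shCDK8 difference was -1.003, just past 2-fold, and -0.32 against the DMSO array, and the control arrays differed by 0.68. Acta2, the smooth muscle actin gene, was at 9.35 in shCDK8 and 8.42 in pLKO.1, and at 8.92 in Senexin B and 8.37 in DMSO. Its differences were 0.93 in shCDK8 and 0.55 with Senexin B, with 0.044 between the control arrays. Nfkb2, a gene of the NF-kappaB family, was at -0.37 with Senexin B. Snai2, a repressor gene of the mesenchymal state, was at -0.44 in shCDK8 and -0.12 with Senexin B. The transcription factor gene Myc was at 0.049 with Senexin B and -0.22 in shCDK8. The cyclin gene Ccnd1 was at -0.19 with Senexin B and 0.10 in shCDK8, and Cdkn1a, an inhibitor of the cell cycle, at -0.28 with Senexin B and 0.21 in shCDK8.

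**Figure D5:**
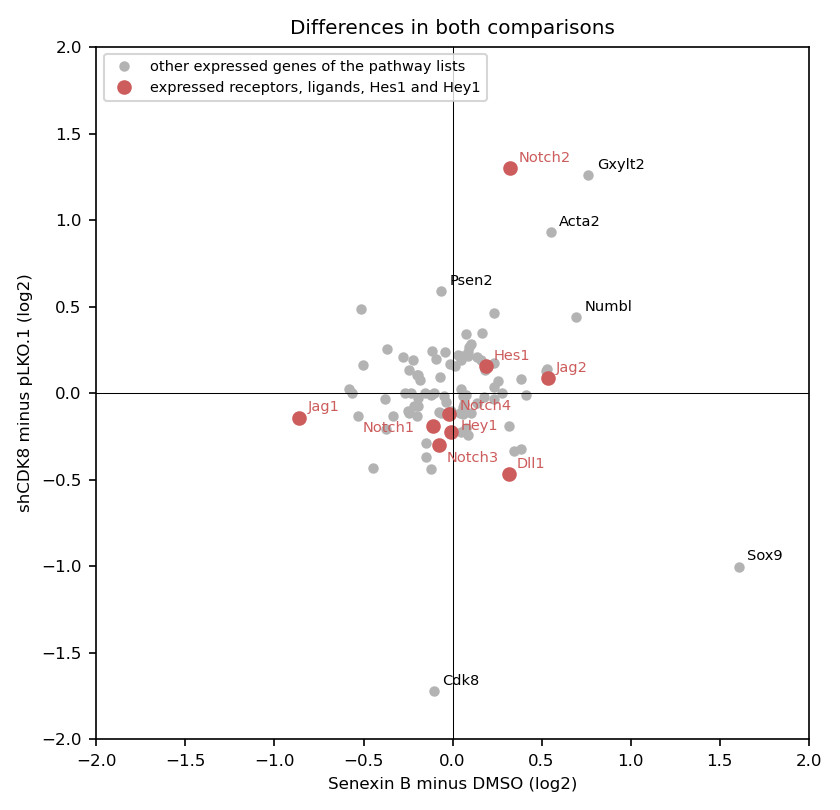
Differences of log2 expression with Senexin B (horizontal) and in shCDK8 (vertical) for the 9 expressed receptors, ligands and target genes (red) and the other expressed genes of the pathway lists (grey), with names for grey genes past 1.5-fold. Notch2 and Gxylt2 lie at the top (1.30 and 1.26 in shCDK8, but 0.32 and 0.76 with Senexin B), and Sox9 lies at the lower right.

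The comparisons of Senexin B with DMSO and of shCDK8 with pLKO.1 have no array in common. Notch2, Jag2 and Hes1 were above 0 in both, Notch1, Notch3, Notch4, Jag1 and Hey1 were below 0 in both, and Dll1 lay on opposite sides by its main probe set. Apart from Notch2 in shCDK8 and Jag1 with Senexin B, each of these differences was under 1.5-fold. With Senexin B Notch4 (-0.020) and Hey1 (-0.011) lay near 0, and against the pLKO.1 array Hey1 was at 0.093. The share of all expressed genes with the same sign in both was not counted, so nothing is read from these signs.

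The genes whose profile over the 4 arrays was most like that of Notch2 were taken by Euclidean distance between profiles centred on their own mean, among expressed genes. They were Dzip1, a cilium gene (distance 0.24), Mr1, which presents microbial metabolites to T cells (0.28), the defensin gene Defb46 (0.31), the myosin gene Myo6 (0.32) and Ccn4, a gene induced by Wnt (0.32). Dzip1 was at 9.81 in shCDK8 and 8.54 in pLKO.1, and at 8.54 in Senexin B and 8.12 in DMSO. Mr1 was at 8.80 in shCDK8 and 7.85 in pLKO.1, and at 7.82 in Senexin B and 7.68 in DMSO. The 5 genes were picked for this likeness, so that a high shCDK8 array in each follows from the choice. Over pLKO.1 it was higher by 1.27 for Dzip1, 0.95 for Mr1 and 0.93 for Myo6. Defb46 and Ccn4 lay under the expression limit on the other 3 arrays and passed it in shCDK8 alone, so no difference is given. A likeness over 4 arrays rests largely on that single array.

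The 3 expressed genes on either side of Notch2 in the RefSeq order were looked up after its value was seen. On one side Sec22b, Pde4dip and Prkab2, nearest first, were at 0.52, 0.26 and 0.44 in shCDK8 minus pLKO.1. On the other Phgdh and Zfp697 were at 0.085 and 0.025, and Gm4450 was below the limit in shCDK8 as well as in pLKO.1, so no difference is given. The 5 genes were thus above 0 in shCDK8 and below the Notch2 difference of 1.30, where 50.8% of expressed genes were above 0. With Senexin B the same 5 genes were at -0.100, -0.052, -0.22, 0.0077 and -0.20, in the same order.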

How the data were processed

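Total RNA of 4 CT26 cultures was measured on 1 array each. The authors deposited a log2 expression value for each probe set on each array. RMA and Affymetrix Expression Console were used, per the submitters' processing notes. For their settings and the array's genome build, the sources used here give nothing. By design RMA equalizes the arrays' distributions and compresses differences near background. Signal over background was not used.

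Of 41345 probe sets 23521 had 1 symbol in the platform annotation, 1814 had several and 16010 none, and only the first kind was used. Differences were taken with Python 3.11.15 and pandas 2.3.3. With 1 array per group there was no test, and the number of arrays limits the precision. The genes, the pathway and marker lists and the motifs were chosen with earlier results of these arrays known. Named were all 10 genes, up to 3 expressed genes per list with the largest absolute difference per comparison and any gene at least 2-fold apart, and 5 profiles nearest to the gene with the widest range. Further list members (Rbpj, Myc, Ccnd1, Cdkn1a and others) were named for their roles, after their values were seen. The alternatives were other expression limits, a second quantile normalization, subtraction of a lowess trend (span 0.3), averaged probe sets, other fold thresholds, a floor at the limit, and the other control array. The second Dll1 probe set was added after seeing the data. The counting was tested on simulated data.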

Additional observations from a re-analysis of the deposited data

How the results depend on the processing

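No paired analysis was possible because each group had 1 array. No replicate could be left out for the same reason. Notch2 in shCDK8 minus pLKO.1 ranged from 1.30 to 1.43 over the alternatives run and was past 2-fold in each. Averaged probe sets and the floor could not change it, since Notch2 had 1 probe set and lay above the limit on all 4 arrays. Nor could the other expression limits change its value, and every alternative used the same shCDK8 array. At a 3-fold threshold 0 genes of the 10 were past it. With Senexin B at a 1.5-fold threshold 1 was, Jag1, whose difference ranged from -0.92 to -0.29. At the 60th percentile limit, which left Notch1, Notch2, Dll1 and Hes1, the median was 0.25 with Senexin B and -0.017 in shCDK8, fewer genes being counted. Over all expressed genes the 1.5-fold and 3-fold thresholds gave 571 and 33 genes with Senexin B, 502 and 11 in shCDK8, and 148 and 1 between the controls, where 35 were past 2-fold with no filter on low values, against 14 with it. Of 102 alternative values of single genes 23 moved by at least 0.1, 16 of them with the other control array, which gave 20 values. Many of the 102 could not move, so the share that moved is no measure of stability. Averaging acts on Dll1 alone, the single gene of the 10 with more than 1 probe set. The floor acts only on Dll4, Jag1 and Jag2, which had arrays under the limit. Of 140 alternative list medians 9 moved by at least 0.1. Low signal further limits what can be said of Dll4, Jag1 and Jag2. It also limits Notch3, which was above the limit on all 4 arrays but near it (6.09 to 6.39), and Psen2, at 6.13 in pLKO.1.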
